A study of Sus scrofa with 12 samples.

Results

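The genes described here are 9 genes of the myosin light chains and the proteins that modify or bind myosin: the essential light chain genes MYL1, MYL3 and MYL4, the regulatory light chain genes MYL2 and MYLPF, the light chain kinase gene MYLK2, and the myosin-binding protein genes MYBPC1, MYBPC2 and MYBPH. They were chosen by name, are 9 of 28210 RefSeq genes on the assembled chromosomes of the pig genome Sscrofa11.1, and were followed in every library of 2 assays. H3K27ac BL-HiChIP ligates neighbouring stretches of chromatin with a bridge linker and pulls down those bearing H3K27ac, the acetylation found at active regulatory DNA, and its loops join pairs of 5-kb anchors. GRID-seq ligates RNA to the DNA next to it, and its lists give the RNA reads of each selected RNA and a signal on 1-kb bins of DNA. The material was longissimus muscle of male piglets aged 2 weeks, without treatment, from LW, the Large White, a commercial lean breed, and MS, the Meishan, a Chinese local breed. Each assay had 2 libraries per breed, and the methods name 2 male piglets without saying whether this is per breed or which library came from which, so the p-values measure only the spread between libraries, which may be technical. The tissue is bulk muscle, in which fewer cells of a type and less RNA per cell cannot be told apart.

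In striated muscle, each myosin head carries an essential and a regulatory light chain on its lever arm. MYL1 and MYLPF encode the essential and the regulatory light chain of fast fibres, MYL3 and MYL2 encode those of slow fibres and of the heart ventricle, and MYL4 is the form of the atrium and of embryonic muscle. MYLK2 is the skeletal muscle kinase that phosphorylates the regulatory light chain after calcium release and so potentiates force. MYBPC1 and MYBPC2 encode the slow and the fast form of myosin-binding protein C, which lies in stripes along the thick filament and tunes the movement of the heads, and MYBPH encodes a shorter relative, myosin-binding protein H.

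The BL-HiChIP lists held 33353 to 57028 loops per library and the GRID-seq lists held 519 to 681 RNAs with 7172517 to 9943666 RNA reads per library. The lowest read number of a listed RNA was 432 to 455, and an RNA missing from a list is not shown to be absent from chromatin. Of 6 marker genes of skeletal muscle fibres, CKM, DES and TTN were listed in every library, and no marker of satellite cells, endothelium, adipocytes, smooth muscle, immune cells or heart muscle was listed. Of 5 fibroblast markers, COL1A1 was listed in every library and COL3A1 in 3. Reads of the same RNA in the libraries of a breed differed little more than counting error: the median squared z over shared RNAs was 0.94 in LW against 0.6 in MS, where counting alone gives 0.455, and 20.4% and 12.6% of RNAs lay beyond the 95% limits of counting. The same median was 135 and 145 between same-numbered libraries of different breeds. The mean squared z was 43.4 and 54.2 within the breeds, raised by a few RNAs that differed far more, and the common biological coefficient of variation was 0.0829. For most RNAs the spread within a breed was thus close to that of repeated counting.

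The RNAs of 4 of the 9 genes, MYL1, MYLK2, MYBPC1 and MYBPC2, were listed in all 4 GRID-seq libraries. MYLPF RNA was listed in LW replicate 1 only, with 6901 reads, and MYBPH RNA in LW replicate 2 only, with 2256 reads. MYL2, MYL3 and MYL4, the light chains of slow, cardiac and embryonic muscle, were listed in none. The RNAs in every list were thus those of the fast essential light chain, the kinase and both skeletal forms of myosin-binding protein C.

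As counts per 1e6 listed reads (CPM) and per kb of the listed RNA, MYL1 was the highest of the 4 in every library, at 157 and 143 in LW against 114 and 105 in MS. MYBPC2 followed in MS, at 97.1 and 87.8, above MYLK2 at 61.1 and 56.1. In LW, MYBPC2 stood at 78.7 and 70.7 and MYLK2 at 75.5 and 67.2, so the libraries of these neighbours overlapped. MYBPC1 was the lowest, at 40.6 and 36.7 in LW against 32.3 and 29.5 in MS. Values per kb depend on the listed outline, which for MYL1 and MYBPC1 is longer than the RefSeq gene of 13233 and 93263 bp. The long noncoding gene LOC102160916 overlaps MYL1, and whether its reads were counted as MYL1 was not tested. By reads alone the order differed, since MYBPC1 is listed over 138.5 kb and the other 3 over 13.2 to 29.0 kb: MYBPC1 was the RNA ranked 28 to 33 in its library and MYLK2 the one ranked 175 to 205.

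The reads of MYL1, MYLK2 and MYBPC1 were higher in LW and those of MYBPC2 were higher in MS. In CPM after TMM normalization, MYL1 had 4282 and 4311 in LW against 3171 and 3225 in MS. The LW libraries lay above both MS libraries, with a log2 fold change of 0.43 (SE 0.0111, n = 2 and 2, edgeR quasi-likelihood test, adjusted p = 1e-05). MYBPC1 had 5290 and 5279 in LW against 4313 and 4341 in MS, again without overlap, and a log2 fold change of 0.29 (SE 0.00688, edgeR adjusted p = 8.17e-06). MYLK2 had 935 and 919 in LW against 776 and 785 in MS, which is a log2 fold change of 0.25 (SE 0.0197, edgeR adjusted p = 0.000344).

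MYBPC2, the fast form of the binding protein, went the other way. It had 2108 and 2091 CPM in LW and 2670 and 2657 in MS, with both MS libraries above both LW libraries and a log2 fold change of −0.34 (SE 0.0092, edgeR adjusted p = 1.09e-05). The slow form and the fast form of myosin-binding protein C thus differed between the breeds in opposite directions. The 4 calls among 4 tested members stand beside 267 calls among 308 RNAs, or 86.7% of all RNAs tested, 44.2% higher in LW and 42.5% higher in MS, so being called does not set the members apart. Libraries without overlap were as common: 46.8% of RNAs were higher in both LW libraries and 47.1% in both MS libraries. In size, 39.9% of the 308 RNAs changed more than MYL1, 51% more than MYBPC2, 54.2% more than MYBPC1 and 60.1% more than MYLK2. Within a breed, the reads of these 4 RNAs differed between libraries by z values from −1.19 to 1.67, which is within counting error, and if the libraries of a breed are counted as 1 sample no test remains. With library size alone as the normalization the direction of all 4 was kept and MYLK2 lost its call (log2 fold change 0.28, SE 0.171).

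**Figure D1:**
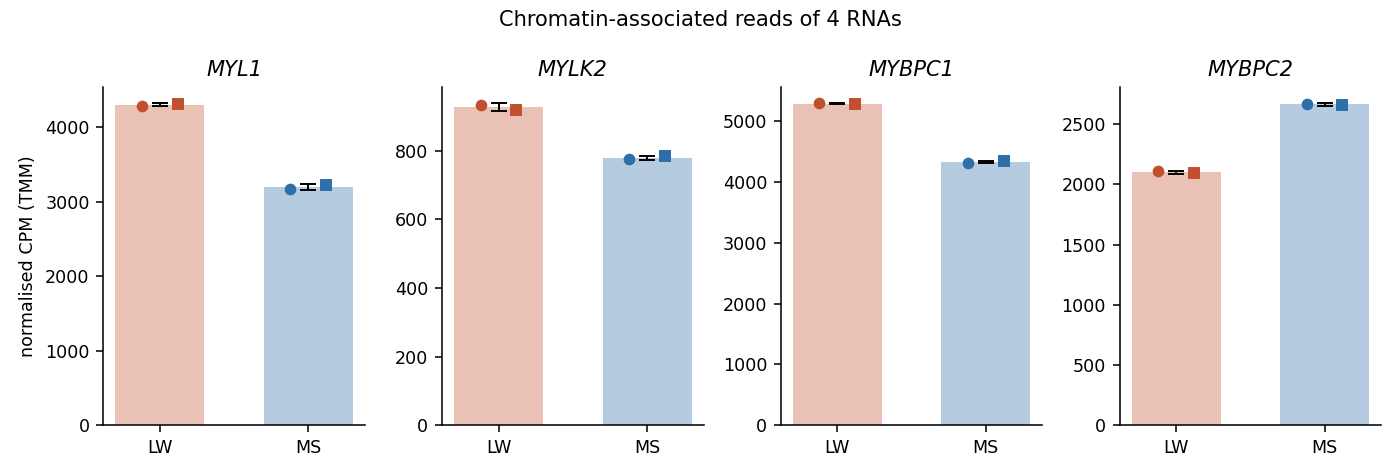
Normalised CPM, counts per 1e6 listed reads (y axis, from 0) of the 4 RNAs listed in every GRID-seq library, for LW and MS (x axis). Bars are means of 2 libraries, error bars are the SD, and circles and squares are replicates 1 and 2. MYL1, MYLK2 and MYBPC1 stood higher in LW and MYBPC2 stood higher in MS, with no overlap of libraries.

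MYBPC1 had the most reads of the 9 genes, and the 3 RNAs whose centred log2 CPM lay nearest to it over the 4 libraries were ENSSSCG00000007369 (root mean square difference 0.006), MYO18B (0.01) and OPN4 (0.016). Their log2 fold changes were 0.29, 0.28 and 0.26, and closeness to MYBPC1 in this follows from how the 3 RNAs were chosen.

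On DNA, each of the 4 RNAs was concentrated at its own gene. An RNA's signal on a bin is scaled to its read number, and neighbouring bins rise and fall in smooth steps, so bins are not independent of each other. The strongest bin of MYL1 RNA was the same in every library, 19.7 kb from the 5′ end of the listed RNA and inside the gene. For MYLK2 it was also the same bin, 9.6 kb from the 5′ end. MYBPC2 peaked at 17.7 to 18.7 kb in 3 libraries and at 10.7 kb in MS replicate 2, along a flat top over the gene. MYBPC1 had no single peak: its strongest bin lay 78.6 or 79.6 kb from the 5′ end in 2 libraries and at 112.6 kb in the other 2.

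**Figure D2:**
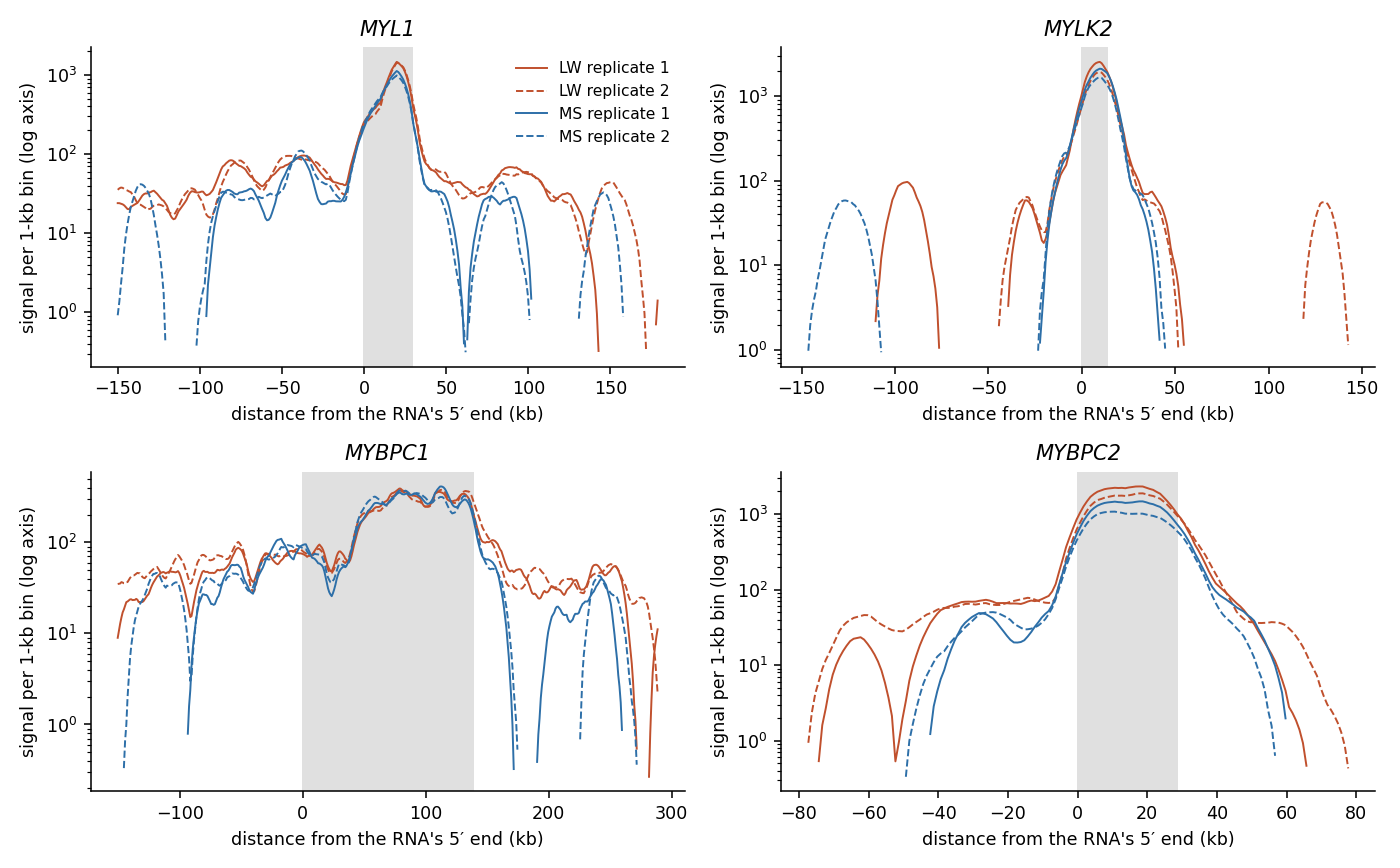
Signal per 1-kb bin (y axis, log scale) of the MYL1, MYLK2, MYBPC1 and MYBPC2 RNAs against the distance from the 5′ end of the listed RNA (x axis, kb), within 150 kb of the gene. Lines are libraries, LW in orange and MS in blue, with replicate 2 dashed, gaps are bins that were not listed, and the shaded band is the listed RNA. In all 4 panels the signal was highest over the gene and the LW lines ran further out without a gap than the MS lines.

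The unbroken run of bins through the gene was longer in both LW libraries than in both MS libraries for all 4 RNAs. MYL1 RNA covered 328 and 386 kb in LW and 158 and 165 kb in MS. MYBPC1 RNA covered 477 and 484 kb in LW and 266 and 321 kb in MS, which were the longest runs among the 4. MYBPC2 RNA covered 141 and 156 kb in LW and 103 and 107 kb in MS, although its reads were higher in MS. MYLK2 RNA, over the shortest listed gene of the 4, covered 95 and 97 kb in LW and 65 and 69 kb in MS. Among 302 RNAs with such a run in every library, 43.7% had a longer run in both LW libraries and 9.27% in both MS libraries. Signal summed over all bins of an RNA was higher in both LW libraries for MYL1, MYBPC1 and MYBPC2, as it was for 52.6% of 308 RNAs, with 14.9% higher in both MS libraries. It was 67969 and 57766 in LW against 44725 and 33972 in MS for MYBPC2, on the scale relative to its reads, and overlapped for MYLK2. No test was made of these values, and an exact permutation test with 2 libraries per breed cannot give a p below 0.333.

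The share of the signal within 10 kb of the RNA's own gene was lower in LW for 3 of the 4 RNAs. For MYL1 it was 62.1% and 58.6% in LW against 77.8% and 69.8% in MS. For MYBPC1 it was 60% and 54.6% in LW against 77.4% and 70.7% in MS. These were the RNAs that lay furthest from their genes. For MYLK2 it was 89.7% and 88.3% in LW against 96.3% and 90.8% in MS, a small gap between the nearest libraries. MYBPC2 overlapped, at 92.2% and 89.3% in LW against 92.3% and 91.1% in MS. Among all 308 RNAs, the share was higher in both MS libraries for 42.9% and in both LW libraries for 10.1%. The rest of MYL1 and MYBPC1 signal lay mostly between 10 kb and 1 Mb from the gene, 31.6% and 34.3% in LW against 16% and 20.5% in MS for MYL1, and 25.7% and 27% in LW against 14.2% and 15.3% in MS for MYBPC1. Both RNAs also had more reads in LW, and the part of read number in these differences was not tested.

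**Figure D3:**
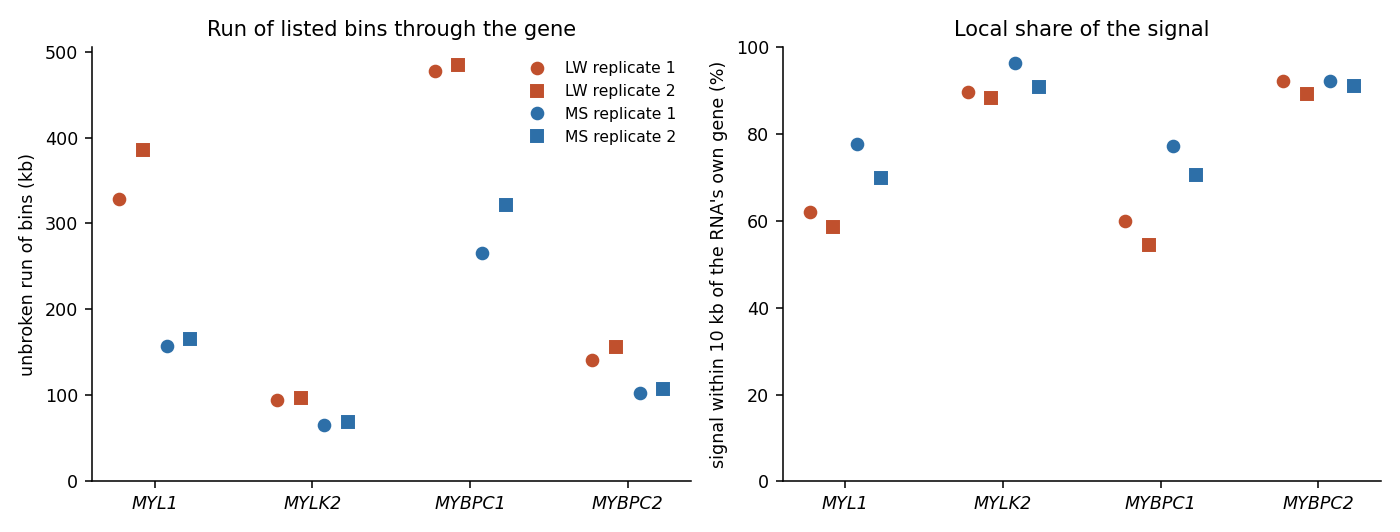
Length of the unbroken run of bins through the gene (left y axis, kb, from 0) and share of the signal within 10 kb of the RNA's own gene (right y axis, percent) for 4 RNAs (x axis) in each library. Orange is LW, blue is MS, circles are replicate 1 and squares replicate 2. Runs were longer in both LW libraries for all 4 genes, and the local share of MYBPC2 overlapped between breeds.

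Further from the gene, MYBPC1 RNA had 103 distinct regions on chromosome 5 beyond its own surroundings, of which 24 were found in at least 2 libraries and 6 in all 4. Among these 6, the region chr5:78492001-78568000 holds PFKM, the gene of the muscle phosphofructokinase, with summed signals of 285 and 134 in LW against 99.1 and 121 in MS. Another, at chr5:80599001-80743000 with NT5DC3 and STAB2, had 639 and 1254 in LW against 251 and 346 in MS. The LW values were higher than the MS values at both, by a narrow margin at PFKM. The flanks of MYBPC1 were the regions with most signal, 6588 and 6931 in LW against 2022 and 1736 in MS on the side of CHPT1, and 7316 and 9044 against 3866 and 5148 on the side of SPIC, without overlap. In the remaining 2 regions the breeds overlapped. MYL1 RNA had 2 regions in all 4 libraries, and these were its flanks: 4147 and 4767 in LW against 1245 and 1521 in MS on the side of ACADL, a mitochondrial fatty acid dehydrogenase gene, and 7432 and 8021 against 3127 and 4144 on the side of LANCL1 and CPS1. MYBPC2 RNA and MYLK2 RNA likewise had only flanking regions in all 4 libraries. These genes are named because the regions recurred, after their values were seen.

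Contacts with other chromosomes made up 0.69% to 1.69% of MYL1 signal, 1.18% to 1.84% of MYBPC1 signal and 0.92% to 1.27% of MYBPC2 signal, and MYLK2 had none in any library. Of 27 such regions of MYBPC1 RNA and 11 of MYL1 RNA, none recurred in another library. Of 11 of MYBPC2 RNA, 1 recurred: the region chr1:268559001-268585000, with SLC25A25, had signals of 154 and 118 in the MS libraries and was not listed in LW.

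H3K27ac loops anchored no more than 1 kb from a gene end were found at 8 of the 9 genes in at least 1 library and at 7 in every library. By the same rule 15431 of all 28210 genes had a loop in at least 1 library. The loop counts and shares below are not set beside those of all loops. MYL4, the atrial and embryonic light chain, had none in any library. The libraries held 46 and 42 such loops in LW and 38 and 37 in MS, and together 94 distinct loops that spanned 5 to 605 kb with a median of 37.5 kb. Of these, 10 were called in all 4 libraries, 10 in 3, 19 in 2 and 55 in 1. LW libraries together held 68 and MS libraries 59, and the 33 in both breeds were 48.5% of the LW loops and 55.9% of the MS loops. Of 88 loops whose other anchor lay away from the gene, 40 had a gene end within 1 kb of that anchor. The loop score used below is the sum of −log10 FDR over the loops of a gene, so it rises with the number of loops, their significance and the depth of the library.

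**Figure D4:**
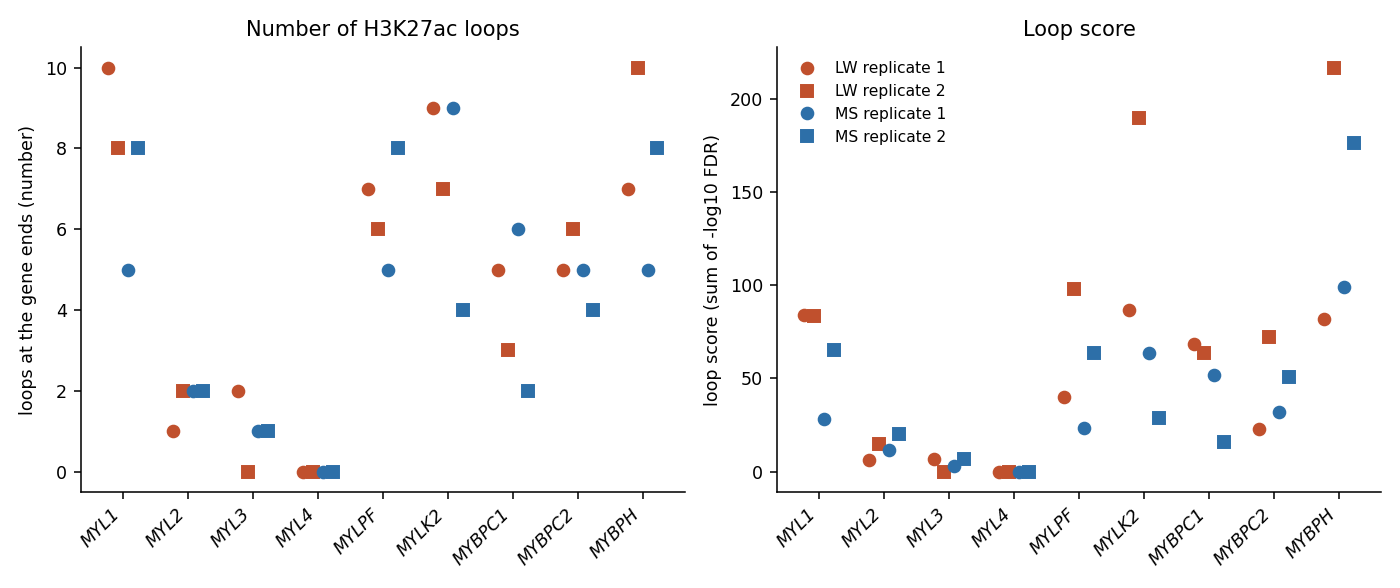
Number of H3K27ac loops with an anchor at a gene end (left y axis) and loop score, the sum of their −log10 FDR (right y axis), for the 9 genes (x axis) in each BL-HiChIP library. Orange is LW, blue is MS, circles are replicate 1 and squares replicate 2. MYL1, MYLK2 and MYBPC1 scores were higher in both LW libraries, MYL4 stood at 0, and the other genes overlapped.

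Among the essential light chains, MYL1 (chr15:113038083-113051315, minus strand) had 10 and 8 loops in LW and 5 and 8 in MS, with scores of 83.8 and 83.3 in LW against 28.5 and 65.1 in MS. The scores did not overlap between the breeds. A 10-kb loop joined its RefSeq 5′ end to the anchor chr15:113060001-113065000 in every library, with −log10 FDR values of 9.38 and 22.9 in LW against 7.92 and 26 in MS. That anchor held the 5′ end of the MYL1 RNA as the GRID-seq lists outline it, 11916 bp upstream of the RefSeq end. A 25-kb loop from the RefSeq 3′ end of MYL1 to the same anchor was also in all 4 libraries. Its values were 8.07 and 12.3 in LW against 5.54 and 4.86 in MS. A 65-kb loop from the same 3′ end to an anchor upstream of the gene was called at 15.4 and 21 in LW. It was called at 8.44 in MS replicate 1, and not in MS replicate 2. Both LW libraries and neither MS library had loops of 20 and 35 kb from the ends of MYL1 to chr15:113015001-113020000, where no gene end was annotated, at 3.05 and 4.44 for the shorter and 2.22 and 2.26 for the longer. Loops of 65 to 85 kb to the ends of ACADL were called in single libraries or in a pair of opposite breeds.

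Counted at the upstream 5′ end from the GRID-seq lists, MYL1 had 4 and 7 loops in LW and 4 and 6 in MS, with scores of 77.7 and 251 in LW against 93.6 and 182 in MS. At the RefSeq 5′ end the scores were 43.2 and 32.6 in LW against 12.1 and 44.1 in MS. The upstream end thus had the higher score in every library, and the breeds overlapped at both ends. This count was chosen after the data were seen. The long noncoding gene LOC102160916 overlaps MYL1 and its upstream anchor, so loops of the 2 genes there cannot be told apart.

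MYL3 (chr13:29730271-29735616), the slow and ventricular form, had few loops: 2 in LW replicate 1, none in LW replicate 2 and 1 in each MS library, each a different loop. Its scores were 6.62 and 0 in LW against 3.09 and 6.91 in MS, which overlapped. MYL4 (chr12:16774655-16792213) is listed with 0 loops in every library.

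The regulatory light chains differed in the same way. MYL2 (chr14:32205953-32213848), of slow fibres, had 1 and 2 loops in LW and 2 and 2 in MS, all within 15 kb on the side of CCDC63. Their scores were 6.05 and 14.8 in LW against 11.8 and 20.2 in MS, and overlapped. MYLPF (chr3:17938129-17941071, minus strand), of fast fibres, had 7 and 6 loops in LW and 5 and 8 in MS, with scores of 40.2 and 98.2 in LW against 23.6 and 63.5 in MS, and these overlapped as well. Of its 9 distinct loops 7 were found in both breeds, 4 of them in all libraries, and only 2 were called in a single library.

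The MYLPF loops called in all 4 libraries included the longest loop of the 9 genes. It spanned 605 kb to the end of ATP2A1, the gene of the calcium pump of fast fibres, with −log10 FDR values of 2.2 and 12.9 in LW against 3.44 and 6.04 in MS. A 310-kb loop to the body of ALDOA, the muscle aldolase gene, was stronger in each library, at 9.14 and 45.9 in LW against 6.05 and 25.6 in MS. ALDOA is named after its values were seen, since the anchor lies inside the gene and not at an end. The anchor at the RefSeq 5′ end of MYLPF also holds an end of TBC1D10B as the GRID-seq lists outline it, so loops of these genes cannot be told apart there. In each breed replicate 2 was the higher library for both loops. A 25-kb loop reached the ends of ZNF48 and ZNF771, at 9.15 and 14.1 in LW against 5.82 and 8.71 in MS, and a 5-kb loop joined both ends of MYLPF. MYLPF RNA, listed in GRID-seq LW replicate 1 only, was not on the ALDOA and ATP2A1 anchors in that library. The other lists hold no MYLPF RNA and so cannot show it there.

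MYLK2 (chr17:35499828-35513096, plus strand), the light chain kinase gene, had 9 and 7 loops in LW and 9 and 4 in MS. Its loop score was 86.5 and 190 in LW against 63.5 and 28.8 in MS, higher in both LW libraries. A loop of 65 kb from its 5′ end into the body of TPX2, a spindle assembly gene, was called at 17.9 and 71 in LW against 8.14 and 18.6 in MS. A 115-kb loop to the end of PDRG1 was called at 4.64 and 4.57 in LW against 5.25 and 2.27 in MS. Both were present in all libraries. A 5-kb loop at its 3′ end was called in both LW libraries, at 15.2 and 12.7, and in neither MS library, although MS replicate 1 had a loop from the same end to the next 5-kb bin at 11.3. The score of LW replicate 2 came mostly from a 10-kb loop at the 5′ end, at 90.4, and the TPX2 loop, at 71. No other library had the 10-kb loop. LW replicate 1 and MS replicate 1 had the loop from the neighbouring 5-kb anchor, at 30.4 and 25.2. Loops of 85 to 135 kb toward BCL2L1 were called in LW and in MS replicate 1, none of them in more than 2 libraries. Of the 19 distinct loops of MYLK2, 13 were in a single library.

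MYBPC1 (chr5:82557975-82651237, minus strand) had 5 and 3 loops in LW and 6 and 2 in MS, all at its RefSeq 5′ end. Its score was 68.7 and 63.6 in LW against 51.7 and 15.7 in MS, which did not overlap. The GRID-seq lists place the 5′ end of the RNA 44889 bp further upstream. There it had 2 and 3 loops in LW and 0 and 2 in MS, with scores of 28.4 and 21.5 in LW against 0 and 13.9 in MS. This count was also made after the data were seen. The strongest loop, spanning 60 kb upstream from the RefSeq 5′ end, was called at 31.9 and 42.7 in LW against 29.5 in MS replicate 1. It was missing in MS replicate 2. The other anchor of this loop carried MYBPC1 RNA in every GRID-seq library, with signals of 330 and 355 in LW against 510 and 441 in MS. Loops of 10 kb and 30 kb were each called in 3 libraries, and a 70-kb loop to the end of SPIC was called in LW replicate 1 and MS replicate 1.

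MYBPC2 (chr6:55281991-55310184, plus strand) had 5 and 6 loops in LW and 5 and 4 in MS, with scores of 23.1 and 72.5 in LW against 32.1 and 50.7 in MS, and the breeds overlapped. No loop was called in all 4 libraries. The loop of 5 kb from its 5′ end to the end of SPIB was called at 8.63 and 33 in LW against 31.1 in MS replicate 2, and a 50-kb loop near JOSD2 at 2.7 and 9.3 in LW against 7.89 in MS replicate 2. Its 5′ and 3′ ends were joined in every library, but by a 25-kb loop in LW replicate 1 and MS replicate 2 and by a 30-kb loop in the other 2.

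MYBPH (chr9:113872439-113884544, minus strand) had 7 and 10 loops in LW and 5 and 8 in MS and scores of 81.7 and 217 in LW against 98.9 and 176 in MS. These scores overlapped, and replicate 2 was the higher library in each breed. A 30-kb loop to an anchor without an annotated gene end was the strongest loop of the 9 genes called in all 4 libraries, at 30.6 and 78.1 in LW against 34.3 and 78.5 in MS. Loops to the gene of myogenin, MYOG, which drives muscle differentiation, were called at 16.9 in LW replicate 1, at 23.7 in LW replicate 2 and at 17.7 in MS replicate 2, each between a different pair of anchors and spanning 90 to 100 kb. MYOG is named after these values were seen. Of loops that separated the breeds, an 85-kb loop was called in both LW libraries only, at 2.42 and 5.59. Loops of 145 kb into PPFIA4 and of 30 kb into ADORA1 were called in both MS libraries only, at 19.9 and 21.2 and at 3.18 and 6.92. Since LW replicate 2 had a 140-kb loop to the neighbouring PPFIA4 anchor at 27.5, the first of these differs between the breeds by the 5-kb bin and not by the region reached. From the other end of MYBPH, LW replicate 1 had a loop to the next ADORA1 bin at 3.4 and LW replicate 2 a 5-kb loop into ADORA1 at 2.52, so ADORA1 was reached in both breeds.

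Own RNA lay on the other loop anchors of 3 genes throughout. All 9 such anchors of MYBPC1, all 12 of MYBPC2 and 16 of 17 of MYL1 carried the gene's RNA in every GRID-seq library. For MYLK2, with the shortest runs, this held for 6 of 19, and 5 of 19 carried it in no library. These loops mostly lie within the run of bins around the gene described above. Several of the anchors lie inside the outline of the listed RNA itself. Examples are chr5:82660001-82665000 for MYBPC1, chr15:113040001-113045000 for MYL1 and chr6:55290001-55295000 for MYBPC2. Own RNA on such anchors follows from where the RNA is listed, so these counts are no separate result about the loops.

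No member passed the test of the loop score between LW and MS. The largest difference toward LW was that of MYLK2, with a log2 fold change of 1.21 (SE 0.849, limma on quantile-normalized log2(score + 1)), followed by MYBPC1 with 0.86 (SE 0.884) and MYL1 with 0.80 (SE 0.802). MYLPF had 0.46 (SE 0.876). Toward MS stood MYL3 with −1.49 (SE 1.06), MYL2 with −1.02 (SE 0.903), MYBPC2 with −0.30 (SE 0.881) and MYBPH with −0.25 (SE 0.797). All limma adjusted p-values were 0.992 or above, and each standard error was large beside its change. With 2 libraries per breed these values show neither a difference nor its absence, and the size that the test could detect is not given here. Over all 15431 genes tested, 5.33% passed a log2 fold change of 1.5 with an unadjusted p under 0.05, 2.83% higher in LW and 2.51% higher in MS, and 0 passed an adjusted p of 0.05 (823 at an unadjusted p under 0.05). DESeq2 on the rounded score passed 100 genes in LW and 146 in MS by the same rule. The median log2 fold change was 0.1 over the 8 members with a loop and 0.02 over all genes.

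Before normalization, the scores of 3 of 8 members, MYL1, MYLK2 and MYBPC1, were higher in both LW libraries, as were those of 21.1% of all genes tested, and none was higher in both MS libraries (7.02% of genes). These 3 genes are also those with more chromatin-associated reads in LW, a pairing noted after both values were seen. After quantile normalization MYL1 and MYLK2 remained apart, and MYBPC1 overlapped, with 6.2 and 5.81 in LW against 5.98 and 4.30 in MS on the log2 scale. With a window of 5 kb in place of 1 kb the MYBPC1 difference turned to −0.21.

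At the gene ends, nearly all RNA signal was the gene's own where its RNA was listed. Within 5 kb of the ends of MYL1, MYLK2, MYBPC1 and MYBPC2, the own RNA gave 96.6% to 100% of the summed signal in every library. MYL1 had a summed signal of 18744 and 18332 in LW against 15271 and 14413 in MS. MYBPC2 had 21927 and 18647 in LW against 14921 and 12007 in MS. Both were higher in both LW libraries on this scale. For MYBPC2 the direction depended on the scaling to reads, since its log2 fold change of 0.62 turned to −0.19 when signal was multiplied by CPM. MYLK2 overlapped, at 32354 and 25021 in LW against 28806 and 23482 in MS, as did MYBPC1, at 3826 and 4862 in LW against 3577 and 4150 in MS. None of these 4 passed the limma test, with log2 fold changes of 0.12 to 0.62 and adjusted p-values of 0.759 to 0.965.

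The ends of MYLPF and MYL2 passed a log2 fold change of 2 with an unadjusted p under 0.05, and neither passed after adjustment. MYLPF had a summed signal of 45992 and 23568 in LW against 295 and 320 in MS (log2 fold change 6.22, SE 1.03, limma adjusted p = 0.162). The LW values came from different RNAs: in LW replicate 1 the MYLPF RNA gave 99.1%, while in LW replicate 2 no MYLPF RNA was listed and 23444 came from TBC1D10B, the gene just upstream. The listed MYLPF RNA spans 79.2 kb, which holds TBC1D10B, so reads of these genes may be split by the outline used in each list. MYL2 had 108 and 204 in LW against 1.4 and 0 in MS (log2 fold change 6.13, SE 1.1, limma adjusted p = 0.174). This signal came from MYO18B RNA, at 103 and 79.2 in LW, and in LW replicate 2 also from PPTC7 RNA, at 125, both from genes on the same chromosome. At both genes most of the LW signal came from RNAs with no signal there in MS. MYO18B RNA was itself listed in every library, at 8396.5 and 8474.1 normalised CPM in LW against 6976.9 and 6939.1 in MS. Why its signal at MYL2 was found in LW only was not tested. Both calls were lost when signal was multiplied by the CPM of each RNA, where the log2 fold change was 1.23 (SE 1.72) for MYLPF and 11.26 (SE 7.36) for MYL2. The 2 calls of 9 members stand beside 7.46% of 23749 genes higher in LW and 8.22% higher in MS by the same rule, and 0 genes passed after adjustment by limma (3723 at an unadjusted p under 0.05). In values before normalization, 4 of 9 members were higher in both LW libraries, against 16.4% of all genes, and 0 were higher in both MS libraries, against 20.4%. Without either LW library MYL2 lost its call, with log2 fold changes of 5.84 without replicate 1 and 5.88 without replicate 2, the lone LW library being assumed to vary like the MS libraries.

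The remaining members carried little RNA of any kind at their ends or changed with a single library. MYBPH had no signal in LW replicate 1, 36884 in LW replicate 2, where its own RNA was listed, and 84.2 and 106 in MS (log2 fold change 0.22, SE 5.68). Without LW replicate 1 the difference was 7.65, and without LW replicate 2 it was −6.91, both past the unadjusted threshold, but each fit holds a lone LW library, which is assumed to vary like the MS libraries. MYL3 had 0 and 583 in LW, the latter from FYCO1 RNA, and 14.2 and 0 in MS. MYL4 had at most 13.2 in any library.

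Of RNAs from elsewhere, TTN was found on the ends of 8 of 9 genes and ENSSSCG00000048037 on 7. Their signals on a single gene were small, from 0.03 to 46.1 in any library. ASPDH RNA, from a gene near MYBPC2, was the only other RNA found at the ends of a member in all 4 libraries, at 160 and 89.3 in LW against 68.6 and 282 in MS on MYBPC2. On MYLPF, ATP2A1 RNA was listed in LW replicate 1 at 255 and in MS replicate 2 at 202, and TNNT3 RNA, from the fast troponin T gene on chromosome 2, at 109 in LW replicate 1 and 129 in MS replicate 1. The ATP2A1 gene is thus joined to MYLPF by a loop in all 4 libraries and by its RNA in 1 library of each breed. On MYLK2, BCL2L1 RNA was listed in GRID-seq MS replicate 2 at 749, and ASPDH RNA in GRID-seq LW replicate 2 at 93.3. No loop from MYLK2 toward BCL2L1 was called in BL-HiChIP MS replicate 2, but the libraries of the 2 assays share only a number. On MYBPC2, TNNT3 RNA was listed in LW replicate 2 at 134. On MYBPH, C1orf21 RNA was listed in LW replicate 2 at 99 and CACNA2D1 RNA in MS replicate 2 at 88.4. ENSSSCG00000044834 stood at 10.9 in MS replicate 1 on MYL3, and ENSSSCG00000048856 at 22 in MS replicate 2 on MYBPC1.

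The other genes of the pathway were counted in the same tests. Of 17 other light chain, kinase, phosphatase and binding genes, 15 were in the gene table and only PPP1CB, a catalytic subunit of myosin phosphatase, had its RNA listed, in replicate 2 of each breed. Of 13 tested for the loop score, 1 passed the unadjusted threshold toward LW and 0 toward MS, beside 5.33% of all genes. It was MYLK3, the cardiac light chain kinase, with scores of 3.77 and 9.44 in LW against 0 in both MS libraries (limma log2 fold change 2.23, adjusted p = 0.93). Their median was −0.27.

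Of thick filament and M-band genes, MYH7, MYOM1 and TTN were among those listed in all libraries. MYOM1 and TTN had more reads in LW and MYH7, the slow myosin heavy chain that MYL2 and MYL3 bind, had fewer, with a log2 fold change of −0.60 (SE 0.0255, edgeR adjusted p = 4.44e-05). Of 9 thin filament RNAs tested, 2 were higher in LW and 7 in MS, all past the threshold as were 86.7% of all RNAs, with a median of −0.17, where the 4 members had a median of 0.27 and all RNAs 0.00. Those higher in LW were NEB, at 0.70, and TPM1, at 0.42, and those higher in MS included the slow troponin TNNT1, at −0.54, and the fast troponins TNNI2, at −0.24, and TNNC2, at −0.21. None of 11 thick filament and 18 thin filament genes passed the loop threshold. For signal at the gene ends, 3 of 15 other light chain, kinase, phosphatase and binding genes passed the unadjusted threshold toward LW and 1 toward MS, beside 15.7% of all genes in either direction. These were MYBPC3, PPP1R12A and MYLK toward LW and MYL7 toward MS, with limma adjusted p-values of 0.215 to 0.283. Their signals were mostly low. MYBPC3 had 5.27 and 10.1 in LW against 0 and 0 in MS, and PPP1R12A had 7.98 and 14.8 against 0.4 and 0. MYLK had 59.9 and 146 in LW against 9.06 and 8.83 in MS. MYL7 had 0 and 0 in LW against 14 and 960 in MS. None of the 11 thick filament genes and 2 of the 18 thin filament genes passed, ACTC1 toward LW and TNNC1 toward MS, the RNAs of which were listed in that breed only.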

How the data were processed

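For BL-HiChIP the authors mapped reads with BWA-MEM to Sscrofa11.1, removed duplicates and called loops per library with FitHiChIP. Each deposited loop carries a single value, taken as an adjusted p-value (FDR) because no value reaches 0.01. For GRID-seq the authors mapped both ends with Bowtie2 (2.2.5 in the submitters' processing notes) and selected chromatin-enriched RNAs. The deposited lists have no headers. The whole number the authors deposited for an RNA was taken as its read count. Numbers deposited by the authors on 1-kb bins were taken as signal after background correction, scaled to those reads. RNA and bin pairs listed more than once (1256 and 2036 in LW, 1125 and 1321 in MS) were summed.

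Gene ends came from RefSeq, which gave no strand here, so both ends were used, and strand was taken from the GRID-seq lists. Loop scores (window 1 kb) and summed signal (window 5 kb) were quantile-normalized and compared with limma 3.58.1 on log2(value + 1), a scale that understates changes of low genes. Zero scores share tied ranks. Reads of RNAs listed in all 4 libraries were compared with edgeR 4.0.16 (TMM, quasi-likelihood), with Benjamini-Hochberg adjustment and standard errors from the F statistic. R 4.3.3, Python 3.11.15, pandas 2.3.3 and matplotlib 3.10.9 were used, and the tests were tested on simulated data.

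Named are all 9 genes, the 2 other RNAs with most signal at the ends of each, the gene ends at loops called in all libraries or in both of a single breed, the 3 RNAs nearest to the member with most reads, and listed pathway genes. The members and lists were chosen with earlier results of these data known. Alternatives covered normalization, pseudocount, windows, FDR, filters, DESeq2 1.42.0, a replicate block and leaving out each library. Chromatin contact counts, expression and ChIP-seq were not analysed here. Results for some of the genes named by these rules are not reported here.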

Additional observations from a re-analysis of the deposited data

How the results depend on the processing

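The read calls of the members kept their direction under all 10 alternatives each, and only MYLK2 lost its call, with library size alone. Without TMM the number of RNAs called was 83 in LW and 84 in MS (136 and 131 with it), and with RNAs listed in at least 2 libraries, set to 0 where missing, 178 and 214. For loops, 862 genes passed toward LW without normalization, 957 toward MS with a pseudocount of 0.1, and 100 and 146 with DESeq2 (436 and 387 in the report). For signal, leaving out RNAs mostly on other chromosomes gave 908 and 645 (1772 and 1951 in the report). Leaving out a library gave 300 to 884 genes in LW and 448 to 876 in MS for loops, 1377 to 3281 and 1649 to 3086 for signal, and 128 to 131 and 119 to 128 for reads. Deviations of same-numbered libraries correlated at 0.354 for loops, −0.006 for signal and 0.939 for reads. Reads of same-numbered libraries thus varied together across the breeds. The labels give no shared piglet or day, and the source was not tested. The main tests left this pairing out. With a replicate block 696 and 592 genes passed for loops, 1181 and 1388 for signal, and 138 and 138 RNAs for reads, and no call of a member changed.

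The loops at the members' ends, 68 in LW and 59 in MS, became 98 and 80 with a window of 5 kb, 54 and 50 at an FDR of at most 0.001, 20 and 16 when called in both libraries of the breed, and 53 and 42 with gene ends from the GRID-seq lists, an alternative chosen after seeing the data. Single libraries held 42 to 46 in LW and 37 to 38 in MS. The median local share of the 4 RNAs, 74.7% in LW and 82.9% in MS, was 83.5% and 89.9% within 50 kb and 11.6% and 15% by number of bins, and 73.5% to 75.9% and 80.8% to 85% without a library.

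Loop differences of members, none past the threshold, turned sign for MYLPF (−0.09 without LW replicate 2, −0.17 without MS replicate 1, up to 1.06 without others), MYBPC1 (−0.21 at 5 kb), MYBPC2 (0.02 without normalization, −1.08 to 0.55 without a library) and MYBPH (0.01 without normalization, 0.23 at 5 kb, −0.69 to 0.22 without a library). Signal differences turned for MYL3 (−0.56 with signal multiplied by CPM, −2.01 to 6.4 without a library), MYL4 (−1.04 to 2.6 without a library), MYLK2 (−0.03 multiplied by reads, −0.07 to 0.32 without a library), MYBPC1 (−0.00037 to 0.49 without a library), MYBPC2 (−0.19 multiplied by reads) and MYBPH (−1.44 with a pseudocount of 0.1, −9.04 multiplied by reads, −6.91 to 7.65 without a library). The signal calls of MYLPF (1.23, SE 1.72) and MYL2 (11.26, SE 7.36) were lost when signal was multiplied by CPM, and the cause was not tested. Intervals were not computed for read counts, and only 2 libraries per breed limit every comparison.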
